A study of Mus musculus with 16 samples.

Results

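The 9 genes described here act on carnitine or on malonyl-CoA. Some carry fatty acids into mitochondria as carnitine esters, import carnitine, or move short acyl groups between CoA and carnitine. The others set the level of malonyl-CoA, which inhibits the entry of fatty acids. The 9 genes are Cpt1a, Cpt1b, Cpt1c, Cpt2, Slc25a20, Crat, Acacb, Mlycd and Slc22a5, and were taken by symbol from a table of 20295 genes. All 9 were among the 12786 genes with enough reads to be tested. The cells were BAT-LgT cells, an immortalized mouse brown preadipocyte line made with large T antigen, used on day 7 of differentiation. They were pretreated for 1 h and then left with or without SR-3420 for 3 h. SR-3420 is a ligand of ABHD5 that switches on triglyceride breakdown without a hormone signal.

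RNA-seq reads were counted in 6 groups. Vehicle cells (DMSO) had 2 samples and cells with SR-3420 alone had 2. Triacsin C alone (5 µM; TC; spelled Triascin C in the labels), which blocks the acyl-CoA synthetases, had 3, as did TC with SR-3420. Etomoxir alone (50 µM; ETO), which blocks the CPT1 enzymes, had 3, as did ETO with SR-3420. The labels give SR-3420 at 10 µM, whereas the text of the study gives a higher concentration. Total counts ran from 9452861 in TC replicate 1 to 25670624 in ETO+SR-3420 replicate 1. Levels are CPM, read counts scaled to library size with the trimmed mean of M-values (TMM). A gene was called when its adjusted p was under 0.05.

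Long-chain fatty acids are activated to acyl-CoA at the outer mitochondrial membrane, where CPT1 swaps the CoA for carnitine. The carrier Slc25a20 moves the acylcarnitine inward in exchange for free carnitine, and Cpt2 rebuilds acyl-CoA in the matrix for beta-oxidation. Malonyl-CoA, made by the acetyl-CoA carboxylases (Acacb at the mitochondrial surface, Acaca in the cytosol) and removed by the decarboxylase Mlycd, binds CPT1 and slows it. In brown fat this pathway feeds heat production.

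Fabp4 and Adipoq were high in every sample, while Ucp1 and Dio2 were low. Among 11 brown adipocyte markers, Fabp4 was the most abundant, at 3026 to 9223 CPM, and Adipoq, an adipocyte hormone, lay between 806 and 3396 CPM. Ucp1, the uncoupling protein that defines brown fat, stayed between 0.461 and 3.66 CPM, and Dio2 had 0 to 2 reads in a sample. Prdm16, a regulator of brown fat identity, was between 5.99 and 40.1 CPM, Cidea between 8.29 and 35.3 and Ppara between 19.9 and 123. Adipocyte markers were thus present, and the label of brown adipocyte rests on the line's origin more than on Ucp1 or Dio2.

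In vehicle, expression per kilobase of counted length was highest for Crat, at 101 ± 27.0 CPM per kb (SD, n = 2), and Cpt2, at 84.9 ± 12.2. Acacb (50.8 ± 20.0) and Mlycd (49.3 ± 14.3) followed, then Slc25a20 (33.6 ± 1.32). The outer membrane enzymes were lower, with Cpt1b at 19.2 ± 1.09 and Cpt1a at 14.7 ± 0.863, and the carnitine importer Slc22a5 was at 11.3 ± 2.52. Cpt1c, the brain form of CPT1, was at 5.15 ± 1.12 CPM per kb. The place of Cpt1b in this order rests on a counted length of 150 bases, which is only a small part of its exons. Crat and Cpt2, and Acacb and Mlycd, lay within their spread of each other in this order.

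Cpt1a, the liver form of the CPT1 family, was the only member called with SR-3420 alone, and it was higher. It is on chromosome 19 (NM_013495, + strand, mm9 3323301 to 3385733). Cpt1a was at 66.0 and 60.8 CPM in vehicle and at 150.2 and 119.6 with SR-3420 alone. Both SR-3420 samples were above both vehicle samples. The same was seen for Cpt1b, Cpt1c and Slc22a5 (log2 0.63, 0.67 and 0.50), which were not called. The log2 fold change of Cpt1a was 1.09 ± 0.23 (SE), or 2.13-fold, with an adjusted p of 0.0123. The call ended when either vehicle sample, or SR-3420 replicate 1, was left out, with a highest adjusted p of 0.135, and also when only the 4 samples of these groups were fitted.

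With either inhibitor and no SR-3420, every Cpt1a value lay above both vehicle values, and neither difference was called. Cpt1a was at 102, 83.9 and 82.4 CPM in TC and at 146, 120.4 and 112 in TC+SR-3420, groups that did not overlap. The log2 difference was 0.50 ± 0.19, with an adjusted p of 0.0510, and it was called with DESeq2, DESeq2 size factors, no filter, library totals, GC offsets or only these groups fitted, and without TC replicate 1 (0.60). It was at 121, 90.4 and 85.9 CPM in ETO and at 165, 131 and 105 in ETO+SR-3420, where the groups overlapped and the log2 difference was 0.43 ± 0.19 (adjusted p = 0.107). This difference was called with GC offsets (0.47), without ETO replicate 1 (0.60) and without ETO+SR-3420 replicate 3 (0.58), and it was 0.25 without ETO+SR-3420 replicate 1. In ETO alone Cpt1a was above vehicle in 3 of 3 samples, by 0.65 ± 0.21 on the log2 scale, with an unadjusted p of 0.00936 and an adjusted p of 1.00. The response of Cpt1a to SR-3420 differed between TC and no TC by -0.59 ± 0.30, and between ETO and no ETO by -0.66 ± 0.30, and neither difference was called (adjusted p = 0.341 and 0.988). With SR-3420 its level was 135 ± 21.6 CPM alone, 126 ± 17.8 with TC and 134 ± 30.1 with ETO.

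Cpt1b, the muscle form of CPT1, which is also a main form in brown fat, was counted over 150 bases of a gene that spans 9458 (chromosome 15, NM_009948, - strand, mm9 89246836 to 89256293). In the annotation of that build a readthrough transcript of the neighbour Chkb covers 2744 of the 2895 exon bases of Cpt1b. Its counts were few, from 25 (exact 95% Poisson interval 16.2 to 36.9, for counting error only) in TC+SR-3420 replicate 3 to 83 (66.1 to 103) in SR-3420 replicate 1. Whether the counted bases stand for the whole gene cannot be told from the table.

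Cpt1b was at 3.00 and 2.77 CPM in vehicle and at 4.89 and 4.06 with SR-3420 alone (log2 0.63 ± 0.24, adjusted p = 0.136). In TC it was at 3.98, 5.13 and 3.64 CPM, and in TC+SR-3420 at 2.95, 2.70 and 2.35. Every TC+SR-3420 sample was below every TC sample, and Cpt1b fell by 0.67 ± 0.20 on the log2 scale (adjusted p = 0.0179). The call ended without TC replicate 2, TC+SR-3420 replicate 2 or TC+SR-3420 replicate 3 and with no filter on low counts (highest adjusted p 0.0974). In ETO it was at 2.90, 2.84 and 2.15 CPM and in ETO+SR-3420 at 2.85, 2.70 and 3.12, with overlapping groups and a log2 difference of 0.13 ± 0.20 (adjusted p = 0.678). Chkb, 486 bases away on the same strand, was counted over 139 bases at 0.943 to 2.16 CPM and was called in none of the 9 comparisons.

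Cpt1c (NM_001252470) ran from 8.45 CPM in ETO replicate 3 to 27.5 in ETO+SR-3420 replicate 1. EdgeR called it in none of the 9 comparisons, and its log2 difference with SR-3420 was 0.67 ± 0.39 alone, 0.37 ± 0.32 with TC and 0.57 ± 0.32 with ETO. With GC offsets it was called higher with SR-3420 in TC (0.61) and in ETO (0.59), and in ETO also without ETO replicate 1 (0.99). The value in ETO was 0.30 without ETO+SR-3420 replicate 1 and 0.31 without ETO replicate 3, and that with SR-3420 alone was 0.39 without SR-3420 replicate 1.

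Cpt2, the inner membrane enzyme that rebuilds acyl-CoA, fell with SR-3420 in both inhibitor backgrounds. Its fitted change and that of Mlycd were the lowest of the 9 members in TC, where they lay within 1 SE of each other. It is on chromosome 4 (NM_009949, - strand, mm9 107576587 to 107596194). In TC its level was 218, 253 and 257 CPM, and in TC+SR-3420 it was 63.7, 70.1 and 57.9. The groups were far apart, with a log2 fold change of -1.93 ± 0.14, which is 3.80-fold lower (adjusted p = 1.73e-06). In ETO the level was 228, 200.4 and 179 CPM and in ETO+SR-3420 it was 89.4, 69.2 and 85.7. Again no samples overlapped, and the change was -1.31 ± 0.14, or 2.49-fold lower (adjusted p = 3.73e-05). Without inhibitor, Cpt2 was at 219.8 and 179 CPM in vehicle and 138 and 134 with SR-3420, a log2 difference of -0.56 ± 0.17 (adjusted p = 0.0653) between groups that did not overlap. It was called lower there with DESeq2, library totals and GC offsets. The change with TC differed from that without it by -1.37 ± 0.22 on the log2 scale (adjusted p = 0.00790), a call that ended without vehicle replicate 3 (adjusted p = 0.0620). The corresponding difference for ETO was -0.76 ± 0.22 (unadjusted p = 0.00412, adjusted p = 0.988).

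Promoter sequences in RefSeq were found for 7 of the 9 members (not for Cpt1b and Crat). The 250 bases before the start are shown for Cpt1a, which rose with SR-3420 alone, and for Cpt2 and Mlycd, which fell together (build GRCm38.p6; Cpt1a chr19:3323051-3323300, + strand; Cpt2 chr4:107923590-107923839, - strand; Mlycd chr8:119394644-119394893, + strand). Capitals mark AGGTCA and GGGCGG, read on either strand (TGACCT and CCGCCC).
Cpt1a: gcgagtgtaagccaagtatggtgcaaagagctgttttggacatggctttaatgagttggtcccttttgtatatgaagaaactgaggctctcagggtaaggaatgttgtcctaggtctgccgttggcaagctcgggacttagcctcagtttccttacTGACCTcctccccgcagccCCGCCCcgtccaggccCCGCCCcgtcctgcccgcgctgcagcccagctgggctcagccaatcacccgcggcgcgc
Cpt2: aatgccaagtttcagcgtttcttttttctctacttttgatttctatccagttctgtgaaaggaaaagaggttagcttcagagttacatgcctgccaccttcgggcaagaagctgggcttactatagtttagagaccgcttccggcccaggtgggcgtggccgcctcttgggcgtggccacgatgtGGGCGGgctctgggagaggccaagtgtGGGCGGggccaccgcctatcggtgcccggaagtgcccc
Mlycd: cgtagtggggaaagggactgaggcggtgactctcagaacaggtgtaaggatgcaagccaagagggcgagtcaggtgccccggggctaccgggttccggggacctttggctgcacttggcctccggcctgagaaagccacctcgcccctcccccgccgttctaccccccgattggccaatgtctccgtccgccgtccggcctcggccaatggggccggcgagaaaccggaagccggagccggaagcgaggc
AGGTCA, a binding element of many nuclear receptors, had 1 match in the Cpt1a window, 94 bases before the start, and in 2 of the 7 member windows. It was present in 14.0% of 32841 RefSeq promoters of this length. GGGCGG, a GC box, occurred in 5 of the 7 and in 32.7% of all, and CACGTG in 0 of the 7 and in 6.02% of all. The Mlycd window held none of the 3 motifs. These matches describe letters in a window and nothing more.

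Slc25a20, the carnitine-acylcarnitine carrier, sits between CPT1 and Cpt2 in the shuttle. It ran at 74.9, 73.4 and 83.4 CPM in TC and at 43.5, 44.5 and 53.2 in TC+SR-3420, without overlap (log2 -0.71 ± 0.16, adjusted p = 0.00324). It ran at 62.2, 72.9 and 75.6 CPM in ETO and at 43.7, 51.1 and 65.4 in ETO+SR-3420, where samples overlapped (log2 -0.40 ± 0.16, adjusted p = 0.0817). It was called lower there with GC offsets and without ETO+SR-3420 replicate 3 (-0.57). Vehicle, at 58.3 and 61.6 CPM, and SR-3420 alone, at 49.7 and 62.8, overlapped as well (-0.09 ± 0.19, adjusted p = 0.833).

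Crat, which moves short acyl groups between CoA and carnitine in the matrix, was the most abundant member per kilobase in vehicle. In vehicle it was at 519 and 354 CPM and with SR-3420 at 488 and 362, and the groups overlapped (log2 -0.04 ± 0.26, adjusted p = 0.953). In TC it was at 443, 549 and 447 CPM and in TC+SR-3420 at 189.5, 174 and 146, without overlap, a change of -1.50 ± 0.22 (adjusted p = 1.77e-04). In ETO it was at 474, 406 and 325 CPM and in ETO+SR-3420 at 279.9, 171 and 240.5, without overlap, a change of -0.80 ± 0.22 (adjusted p = 0.0153). The ETO call ended without ETO replicate 1, without ETO+SR-3420 replicate 2 and with only these groups fitted (highest adjusted p 0.0754). The TC difference in response was -1.46 ± 0.34 (adjusted p = 0.0412), and was not called when any sample of the 4 groups involved was omitted (highest adjusted p 0.235). Crat overlaps Dolpp1 on the other strand, by 54 bases, and the counting is not stated to use strand. Dolpp1 itself fell with SR-3420 in TC, by 0.83 on the log2 scale (adjusted p = 0.00278), and so did the neighbour Ppp2r4, 301 bases away, by 0.58 (adjusted p = 0.0137). In the annotation, 59 of the 4224 exon bases of Crat lie within Dolpp1 exons. Reads shared by the overlap cannot be told apart.

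Mlycd and Acacb stand on opposite sides of malonyl-CoA, removing and making it. Mlycd was at 125 and 82.3 CPM in vehicle and at 99.3 and 68.8 with SR-3420 alone. Its groups overlapped there (log2 -0.30 ± 0.30, adjusted p = 0.614, and -0.59 to 0.03 with 1 sample omitted). In TC it was at 107, 143 and 113 CPM and in TC+SR-3420 at 38.4, 32.9 and 28.7, groups that did not overlap, with a change of -1.86 ± 0.25, or 3.62-fold lower (adjusted p = 1.03e-04). In ETO it was at 126, 96.6 and 81.5 CPM and in ETO+SR-3420 at 59.1, 34.5 and 54.4, again without overlap, a change of -1.04 ± 0.24 (adjusted p = 0.00744). The difference of the TC and no-TC responses was -1.55 ± 0.39 (adjusted p = 0.0522), and was called with DESeq2, library totals, GC offsets or only these groups fitted.

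Acacb was at 551 and 311 CPM in vehicle, at 539.7 and 329.7 with SR-3420, at 210.4, 318 and 199 in TC, and at 254, 259 and 166 in TC+SR-3420. ETO gave 337, 323 and 196 CPM and ETO+SR-3420 gave 359, 231 and 251. Its groups overlapped for SR-3420 in all 3 backgrounds, with log2 differences of 0.01 ± 0.37, -0.10 ± 0.30 and -0.03 ± 0.30, and edgeR called it in none of the 9 comparisons. Its largest log2 differences among the 9 were TC+SR-3420 against SR-3420 alone, -0.94 ± 0.34 (adjusted p = 0.135), and TC against vehicle, -0.83 ± 0.34 (adjusted p = 0.140). The first was -0.54 without SR-3420 replicate 1, and the second was -0.36 without vehicle replicate 2. With GC offsets both were called, at -0.73 and -1.03.

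Slc22a5, which imports carnitine across the plasma membrane, fell with SR-3420 in TC by 0.45 ± 0.17 on the log2 scale (adjusted p = 0.0496). Its samples were at 38.2, 44.2 and 41.1 CPM in TC and at 34.8, 30.6 and 25.1 in TC+SR-3420. The call lay at the threshold and was lost in 8 of 15 alternatives, among them DESeq2, the omission of any TC sample and the omission of TC+SR-3420 replicate 2 or 3 (highest adjusted p 0.183). In vehicle it was at 40.5 and 29.4 CPM and with SR-3420 alone at 53.6 and 45.0 (log2 0.50 ± 0.20, adjusted p = 0.169). This difference ranged from 0.29 to 0.75 with 1 sample omitted.

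**Figure D1:**
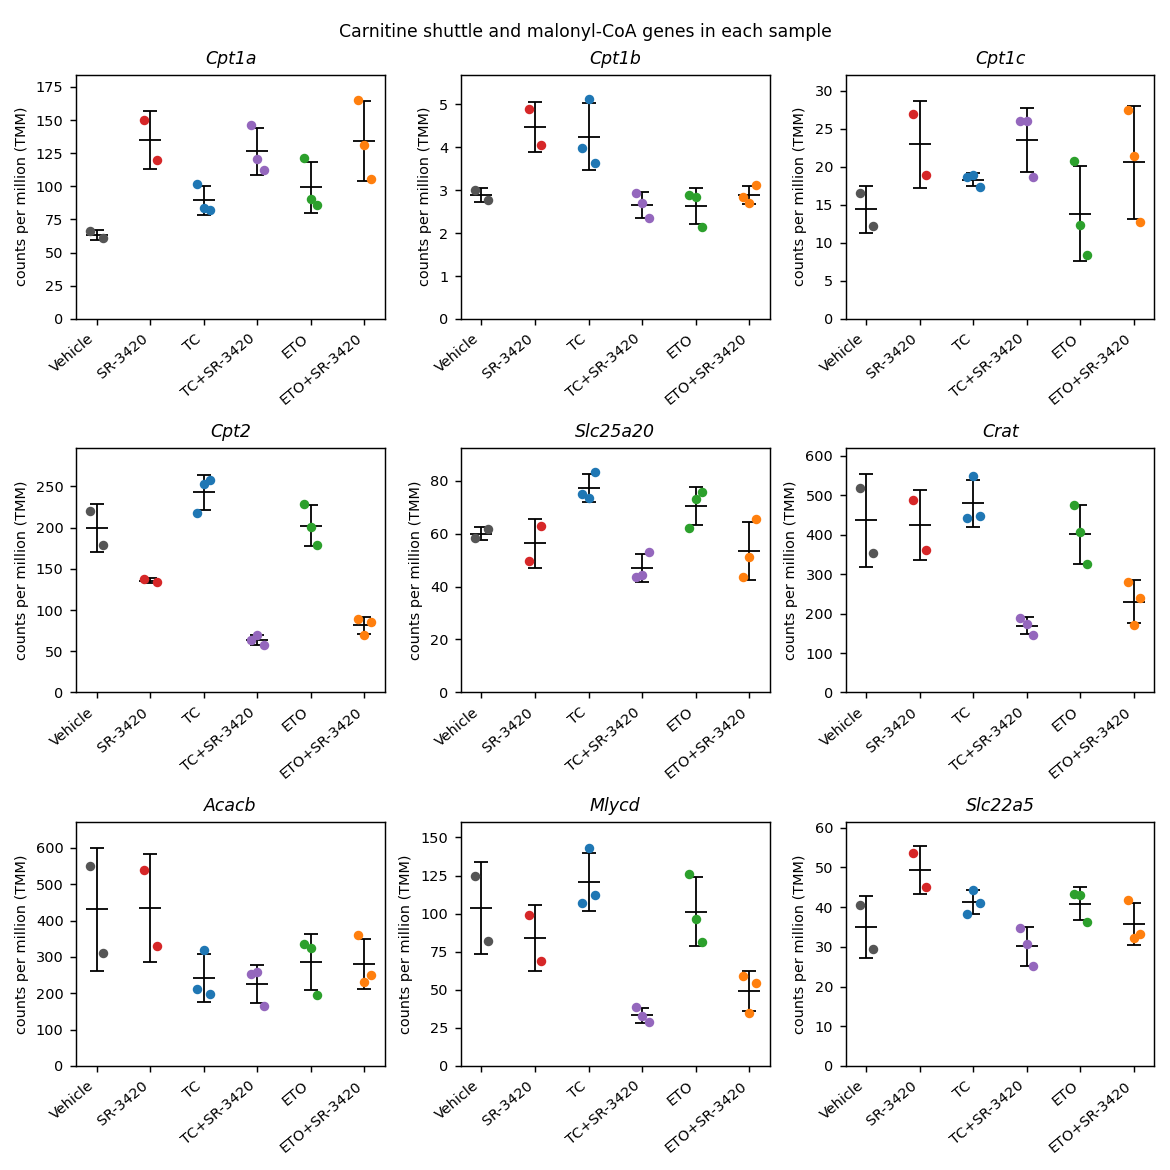
CPM (TMM-scaled, linear axis from 0) of the 9 genes in each of the 16 samples, by group. Points are samples and black bars are the mean and SD; Cpt2 sits at 57.9 to 70.1 in TC+SR-3420 against 218 to 257 in TC, and Mlycd at 28.7 to 38.4 against 107 to 143.

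Counted over the 9 members by edgeR, SR-3420 alone called 1 higher and 0 lower, while 7.54% of all genes tested were called, 4.75% higher and 2.79% lower (607 and 357 genes). Library totals in place of TMM gave 467 higher and 572 lower, and GC offsets gave 1570 and 1465. An unadjusted p under 0.05 was reached by 4 members, and DESeq2 called 1 higher and 1 lower. With TC it called 6 lower and 0 higher, beside 36.9% of all genes, 19.7% lower and 17.3% higher (2514 and 2208 genes, where GC offsets gave 3231 lower and 3854 higher). There 7 members had an unadjusted p under 0.05, and DESeq2 called 5 lower and 1 higher. With ETO it called 3 lower and 0 higher, beside 25.3% of all genes, 12.8% lower and 12.5% higher (1637 and 1597 genes, where library totals gave 2029 and 1328), with 5 members under an unadjusted p of 0.05 and the same counts from DESeq2. The median log2 difference of the members was 0.01 alone, -0.67 with TC and -0.19 with ETO, where that of all genes tested lay at 0.02 or nearer to 0. Scaling by library totals alone moved the median of all genes for SR-3420 alone to -0.12.

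TC and ETO without SR-3420 ask what each inhibitor did by itself, against the same 2 vehicle samples. By edgeR, TC alone called 0 members in either direction (11.7% of all genes called, 4.77% higher and 6.94% lower), with 3 at an unadjusted p under 0.05 and 0 by DESeq2. ETO alone called 0 members (0.0235% of all genes, 0.0156% higher and 0.00782% lower), with 1 at an unadjusted p under 0.05 and 0 by DESeq2. Its 2 genes higher and 1 lower became 7 and 10 with DESeq2 and 10 and 13 with GC offsets.

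TC+SR-3420 and ETO+SR-3420 were also compared with the 2 samples of SR-3420 alone, which both comparisons share. TC+SR-3420 called 4 members lower and 0 higher by edgeR (4.58% of all genes called, 3.55% lower and 1.02% higher), with 6 at an unadjusted p under 0.05 and 4 by DESeq2. Of all genes, 131 were higher and 454 lower, where DESeq2 gave 456 and 748 and GC offsets 971 and 1373. The 4 members were Cpt2 (-1.09 ± 0.15), Crat (-1.32 ± 0.24), Mlycd (-1.33 ± 0.27) and Slc22a5 (-0.71 ± 0.18). Without SR-3420 replicate 1 the calls of Crat (adjusted p = 0.138), Mlycd (0.219) and Slc22a5 ended, and that of Mlycd ended also without TC+SR-3420 replicate 3 (0.0670). The call of Slc22a5 was lost in 7 of 14 alternatives (highest adjusted p 0.408). GC offsets called Cpt1b and Acacb lower as well. ETO+SR-3420 called 0 members by edgeR, beside 0.00782% of all genes (1 gene, lower), with 5 at an unadjusted p under 0.05 and 1, Cpt2, by DESeq2. A fit with replicate number as a block called 1838 genes, 761 higher and 1077 lower. Cpt1b, Cpt2, Crat, Acacb, Mlycd and Slc22a5 were among those lower, though the numbers were not taken as pairs. GC offsets called 129 genes, 15 higher and 114 lower, with Cpt2 and Crat among them. The median of the 9 members was -0.63, and Cpt1a, Cpt1c and Slc25a20 changed sign with some of the libraries omitted, Cpt1a (-0.01) also with DESeq2 and GC offsets.

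Whether the response to SR-3420 differed with an inhibitor present was tested directly. With TC, edgeR called 3 members lower and 0 higher, Cpt1b (-1.30 ± 0.31, adjusted p = 0.0458), Cpt2 and Crat, beside 2.51% of all genes (1.27% lower and 1.24% higher, or 163 and 158 genes, where DESeq2 size factors gave 140 and 190 and GC offsets 614 and 885), with 6 at an unadjusted p under 0.05 and 5 by DESeq2. The median of the 9 values was -0.94 against -0.04 over all genes, and Acacb was above 0 without vehicle replicate 3 (0.24), SR-3420 replicate 1 (0.29), TC replicate 2 (0.13) or TC+SR-3420 replicate 3 (0.07), and, like Cpt1c, with GC offsets. The Cpt1b call ended when any sample of the 4 groups was omitted (-1.43 to -1.14). It ended also with no filter on low counts and with only these groups fitted. With ETO, edgeR called 0 members and 0% of all genes, with 4 members at an unadjusted p under 0.05 and 0 by DESeq2. The median of the 9 values was -0.66 against -0.00 over all genes, and Acacb and Cpt1c changed sign with some of the libraries omitted (-0.51 to 0.36 and -0.37 to 0.32) and with GC offsets.

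**Figure D2:**
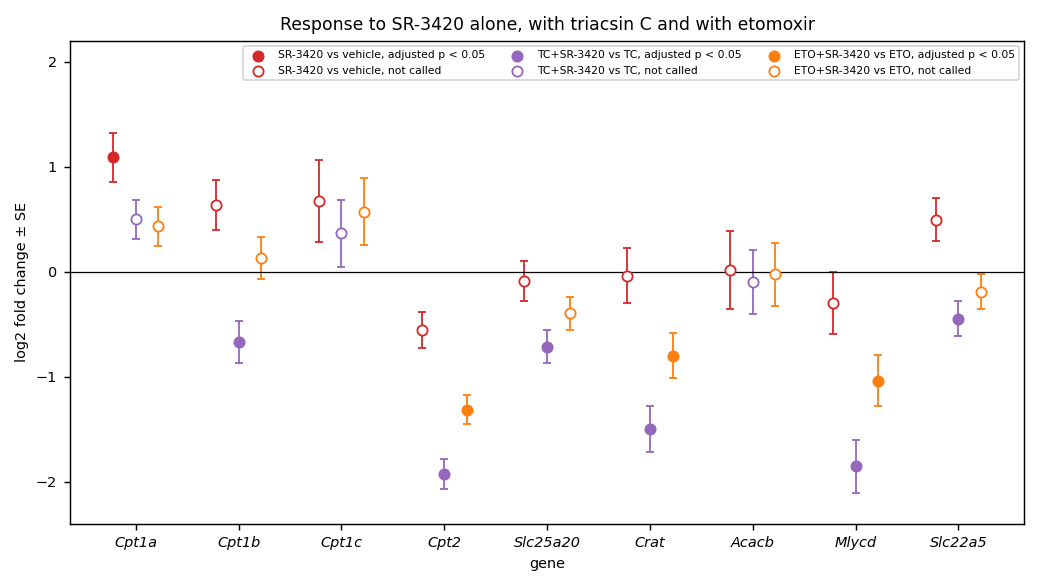
Log2 fold change with SR-3420 (vertical axis, bars are SE from the fit) for each of the 9 genes (horizontal axis), alone, with TC and with ETO. Filled points passed an adjusted p of 0.05 and open points did not; Cpt2 lay at -0.56, -1.93 and -1.31, and Cpt1a at 1.09, 0.50 and 0.43.

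Ratios within a sample cancel the scaling of libraries. The log2 ratio of Cpt1b to Cpt1a per kilobase was 0.38 and 0.38 in vehicle, and -0.10 and -0.04 with SR-3420 alone. It was 0.16, 0.81 and 0.34 in TC and -0.79, -0.64 and -0.74 in TC+SR-3420. The zero of this ratio rests on the counted length of Cpt1b, so only its differences between groups are compared. In ETO it was -0.55, -0.15 and -0.48, and in ETO+SR-3420 it was -1.02, -0.76 and -0.24. Exact permutation tests over samples, two-sided, gave p = 0.1 for TC+SR-3420 against TC and p = 0.1 for ETO against vehicle. These designs could give no smaller p than 0.1, and 0.333 with 2 against 2, so no test could pass 0.05, and over the 21 tests the adjusted p was 0.3 for both.

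The log2 ratio of Acacb to Mlycd was higher with SR-3420 in each background. It was 0.13 and -0.10 in vehicle and 0.43 and 0.25 with SR-3420. It was -1.04, -0.86 and -1.20 in TC and 0.71, 0.96 and 0.52 in TC+SR-3420, a difference of 1.76 with no overlap (exact permutation p = 0.1, adjusted p = 0.3). It was -0.60, -0.27 and -0.75 in ETO and 0.59, 0.73 and 0.19 in ETO+SR-3420, a difference of 1.04 (exact permutation p = 0.1, adjusted p = 0.3). Without SR-3420 its difference from vehicle was -1.05 in TC (exact permutation p = 0.1, adjusted p = 0.3), without overlap. In ETO it was -0.55 (exact permutation p = 0.2, adjusted p = 0.42), also without overlap. TC+SR-3420 differed from SR-3420 alone by 0.39, without overlap. ETO+SR-3420 differed from it by 0.17, with overlap, and by 0.05 to 0.32 with 1 sample omitted. The ratio of Acacb to Acaca lay between 0.67 ± 0.39 in ETO and 1.35 ± 0.43 with SR-3420 alone. It was higher with SR-3420 alone than in vehicle by 0.64 (exact permutation p = 0.333, adjusted p = 0.5) and higher in ETO+SR-3420 than in ETO by 0.65 (exact permutation p = 0.1, adjusted p = 0.3), in both cases without overlap. The difference with SR-3420 alone was 0.31 without vehicle replicate 3, 0.97 without vehicle replicate 2 and 0.33 without SR-3420 replicate 1, and that in ETO was 0.43 without ETO replicate 3. In TC+SR-3420 against TC it was -0.05, with overlap.

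**Figure D3:**
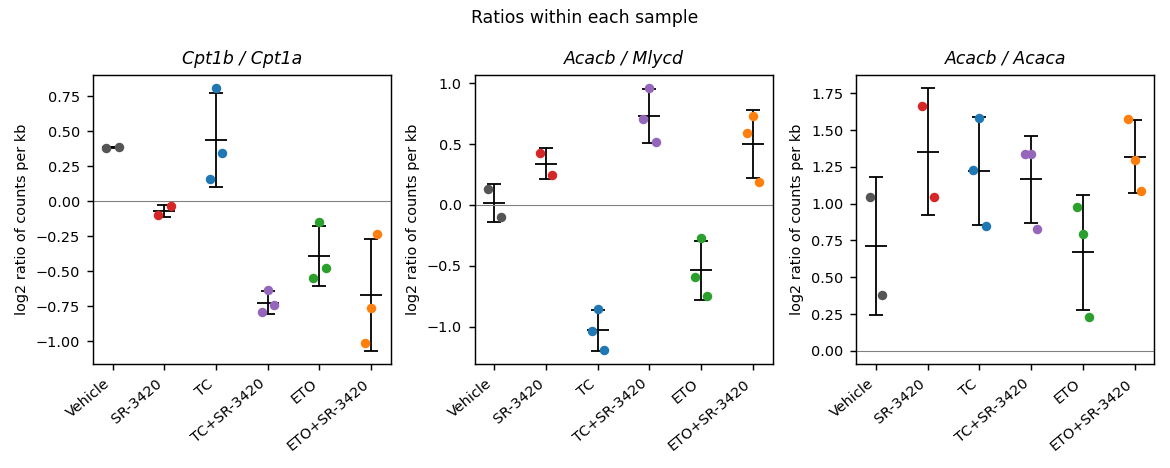
Log2 ratio of counts per kilobase (vertical axis) for 3 gene pairs in each of the 16 samples, with mean and SD by group. The Acacb to Mlycd ratio is between -1.20 and -0.86 in TC and between 0.52 and 0.96 in TC+SR-3420.

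For the gene lists that follow, the shares of all genes called were 7.54% for SR-3420 alone (2.79% lower), 36.9% for SR-3420 in TC (19.7% lower), 25.3% in ETO (12.8% lower), 11.7% for TC against vehicle (6.94% lower) and 4.58% for TC+SR-3420 against SR-3420 alone (3.55% lower). Genes downstream of the shuttle were lower in the same comparisons. Of 15 beta-oxidation genes, all tested, SR-3420 lowered 2 alone, 15 in TC and 10 in ETO, and raised 0 in each. In TC the steepest were Acads (-1.70 ± 0.25), Eci1 (-1.68 ± 0.18) and Echs1 (-1.45 ± 0.15), and in ETO Acads (-1.11 ± 0.25), Echs1 (50.1% of its level in ETO) and Eci1 (-0.85 ± 0.17). Their summed level was 4720, 5255 and 5175 CPM in TC and 2070, 2278 and 2279 in TC+SR-3420. Of 8 malonyl-CoA and fatty acid synthesis genes, SR-3420 lowered 1 alone, 6 in TC and 5 in ETO, led in TC by Mcat (-1.51 ± 0.33), Thrsp (-1.38 ± 0.28) and Slc25a1 (-1.31 ± 0.24). Acaca, the cytosolic carboxylase, fell by 0.62 with SR-3420 alone and by 1.31 with TC alone, and it fell by 0.66 ± 0.12 with SR-3420 in ETO, while TC+SR-3420 against TC did not call it (-0.05 ± 0.12).

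Of 8 genes of carnitine supply and handling, 7 were in the table (Tmlhe was not found) and 6 were tested. SR-3420 lowered 1 alone, 3 in TC and 3 in ETO, and raised 1 in ETO. Slc16a9, a carnitine efflux carrier, fell by 1.88 alone, by 1.72 in TC and by 3.21 in ETO, from levels of at most 4.64 CPM. A list of 9 genes held the subunits of the AMP-activated kinase, which inhibits the carboxylases, and its upstream kinases Stk11 and Camkk2. Of these, 1 was higher and 1, Camkk2 (-0.44 ± 0.13), was lower in TC+SR-3420 against TC. Prkag2, a regulatory subunit, was 0.70 ± 0.18 higher there, after falling by 2.05 in TC against vehicle, whereas with SR-3420 in ETO it fell by 0.54 ± 0.18. Of the 5 acyl-CoA synthetase genes, the family that TC blocks, 4 were tested, and Acsl1 fell by 0.84 ± 0.23 in TC against vehicle, by 1.35 ± 0.23 in TC+SR-3420 against SR-3420 alone and by 0.68 ± 0.21 in ETO+SR-3420 against ETO, whereas its value in TC+SR-3420 against TC was -0.46 ± 0.21 and was not called.

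Adipocyte markers moved in the same comparisons. Of 11 brown adipocyte markers, 10 were tested, and SR-3420 lowered 1 alone, 6 in TC and 4 in ETO, while 1, Prdm16, rose in TC. The list did not move together. Called or not, 5 markers lay above 0 and 5 below with SR-3420 alone, 3 above and 7 below in TC, and 4 above and 6 below in ETO. Ucp1, low in every sample, was above 0 in each (0.84, 0.75 and 1.11) and was not called. TC against vehicle lowered 3 of the 10, Prdm16 (-2.14), Pparg (-1.48) and Ppara (-0.83), and TC+SR-3420 against SR-3420 alone lowered 4, led by Ppara (-2.30), Plin1 (-1.45) and Prdm16 (-1.34). Fabp4 was the largest part of the sum that follows, which was higher in TC than in vehicle although these 3 genes fell. Their summed level was 12156 and 11488 CPM in vehicle, 8723 and 8514 with SR-3420, 12996, 13609 and 13661 in TC, 4874, 5041 and 5470 in TC+SR-3420, 11795, 11014 and 12588 in ETO, and 5983, 4726 and 8022 in ETO+SR-3420. Adipoq fell by 1.68 ± 0.21 in TC+SR-3420 against TC, and Plin1 by 1.48 ± 0.31. The 5 preadipocyte markers, led by Col1a1, summed to 1612 and 1396 CPM in vehicle, 3632 and 2634 with SR-3420, 2273, 2016 and 1725 in TC, 4225, 3511 and 2783 in TC+SR-3420, 1987, 1421 and 930 in ETO, and 4288, 3091 and 2089 in ETO+SR-3420. SR-3420 raised 0 of them alone, 2 in TC and 4 in ETO. These shifts accompany the falls of Cpt2, Crat and Mlycd, and their part in them was not tested. Fewer adipocytes and less RNA per adipocyte cannot be told apart in such pooled samples.

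Markers of other cell types were low. The 7 muscle markers summed to at most 20.3 CPM (most abundant Des), the 5 macrophage markers to at most 18.4 (Cd68), the 4 endothelial markers to at most 3.58 (Kdr) and the 4 neuronal markers to at most 4.03 (Tubb3). Des was lower with SR-3420 in TC (-1.23) and in ETO (-1.09). Of the 3 muscle markers tested, Myod1 (0.84) and Acta1 (-0.14) were not called in TC. In ETO 1 of the 3 was lower and 2, above 0, were not called. Kdr was higher with SR-3420 in TC and in ETO (0.96 and 1.28). Cd68 was higher in TC than in vehicle (1.92) and lower in TC+SR-3420 than in TC (-1.29). Csf1r, also among the 2 macrophage markers tested, was not called in TC+SR-3420 against TC (0.50). The 1 neuronal marker with enough reads to be tested was not called. Of the defining genes, Emr1, Ckm and Rbfox3 had at most 4 reads in a sample.

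**Figure D4:**
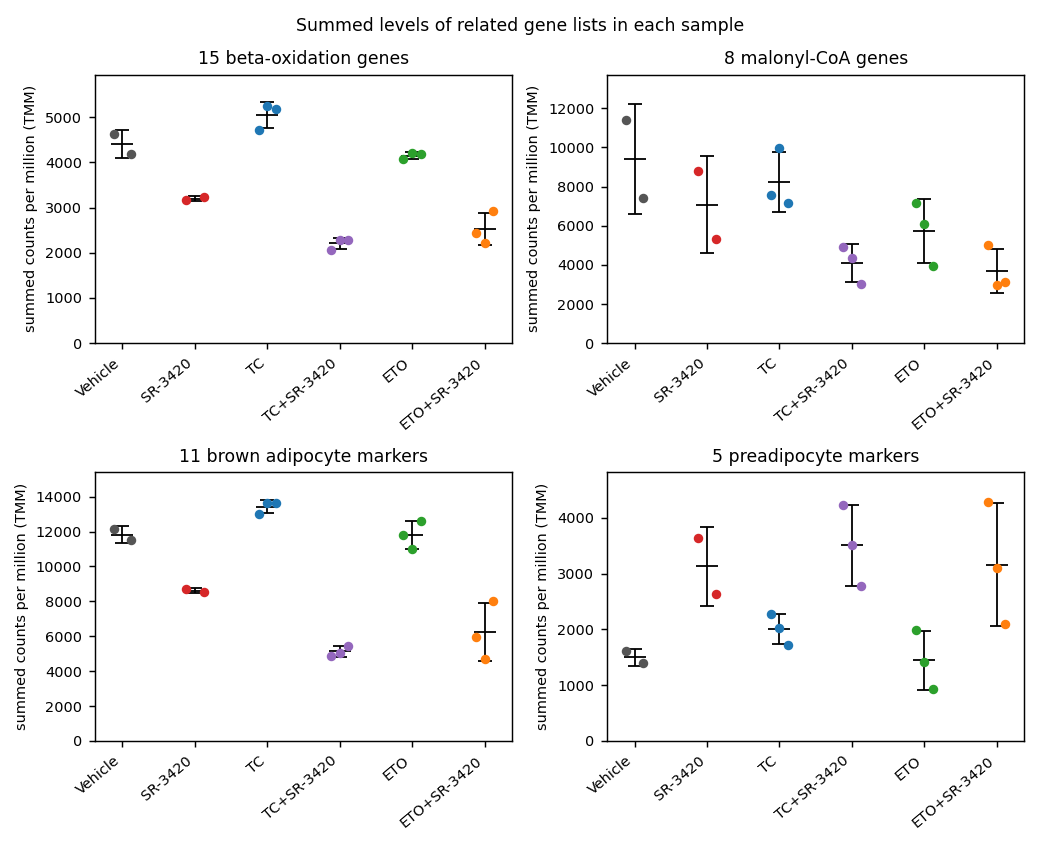
Summed CPM (vertical axis, from 0) of 4 gene lists in each of the 16 samples, with mean and SD by group. Beta-oxidation genes sum to 2070 to 2279 in TC+SR-3420 and 4720 to 5255 in TC, while preadipocyte markers sum to 2783 to 4225 and 1725 to 2273.

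By Pearson correlation of log2 CPM over the 16 samples, among 10333 genes with a mean of at least 5 CPM (10334 for Cpt1b), the genes most like Cpt2 were Sdha (r = 0.993), Pxmp4 (0.989) and Echdc3 (0.988). For Crat they were Slc5a6 (0.989), Mlycd (0.988) and Sbk1 (0.987), and for Mlycd they were Pex11a (0.988), Crat (0.988) and Tmem143 (0.985). Cpt1a was most like Pde1b (0.931), Pik3r5 (0.911) and Atp6v0a1 (0.907), and Cpt1b like Slc25a34 (0.881), Pcsk4 (0.869) and Rcor2 (0.866). Slc25a20 was most like 4931406C07Rik (0.965), Agbl3 (0.957) and Hadhb (0.955), and Slc22a5 like Tmem120a (0.911), Fem1a (0.898) and Irs2 (0.897). Among the members, Cpt2 had r = 0.963 with Mlycd and -0.625 with Cpt1a. The samples fall into groups, so these values describe shared patterns and were not tested.

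Within 5 kb of the members, Mtl5 lay next to Cpt1a (0.188 to 1.71 CPM), Foxn4 next to Acacb (0 to 0.292 CPM), and Tsks (0 to 0.856) and Prmt1 (75.1 to 296) next to Cpt1c. Mtl5 and Prmt1 were called in none of the 9 comparisons, and Foxn4 and Tsks had too few reads to be tested. Cpt2, Slc25a20, Mlycd and Slc22a5 had no such neighbour in the table.

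Vehicle and SR-3420 alone hold fewer samples than the other groups, and several calls against them ended when 1 library was omitted. The same vehicle, SR-3420, TC and ETO samples serve several comparisons, which are not independent. Counts measure RNA at 1 time point, 3 h after SR-3420, and say nothing of enzyme activity, malonyl-CoA or fatty acid oxidation. Cpt1b was counted over a small part of its exons, and Crat shares bases with Dolpp1. A gene that was not called is not shown to be unchanged.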

How the data were processed

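RNA-seq of 16 samples was used. Per the labels and the study's methods, the authors aligned reads to mm9 with STAR 2.4.2a, kept 1 read per position and length with HOMER, and deposited whole-number read counts per gene from iRNA-seq, not normalized, together with the bases counted in each gene. Keeping 1 read per position limits the counts of short, abundant genes. Whether the counting used strand is not given in the sources used here. Groups came from the labels; the study describes its replicates as independent experiments. No 2 samples of a group held identical counts, and all 14 pairs differed by more than counting noise.

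Counts were fitted with edgeR 4.0.16 (R 4.3.3) by the quasi-likelihood test after TMM scaling of the 12786 genes kept by filterByExpr, as 1 model with a mean for each of 6 groups, 10 residual degrees of freedom and 9 contrasts; p-values were adjusted by Benjamini-Hochberg over all genes tested, and standard errors came from the fold change and the F statistic. The procedure was tested on simulated data. Ratios used counts per kilobase and exact permutation. Members and lists were chosen with earlier results of these data known. All members are named; of each list at most 3 genes per comparison past the threshold with the largest fold change are named; likeness used log2 CPM with a prior count of 2. Alternatives were DESeq2 1.42.0, other scalings, filters, GC offsets (GC content for 98.0% of genes), a replicate block and leaving out each sample.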

Additional observations from a re-analysis of the deposited data

Results flagged for a closer look

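The response to SR-3420 differed with and without TC, by the test of that difference, for 3 members. The difference on the log2 scale was -1.37 for Cpt2, -1.46 for Crat and -1.30 for Cpt1b. Without TC edgeR called none of the 3 with SR-3420 (-0.56, -0.04 and 0.63 in that order), and with TC all 3 were called lower (-1.93, -1.50 and -0.67). The Cpt1b values come from 150 counted bases and at most 83 reads in a sample. The calls of Crat and Cpt1b ended when any sample of the groups involved was left out. That of Cpt2 ended only without vehicle replicate 3. Every such difference rests on the vehicle and SR-3420 groups, of 2 samples per group. Groups of 2 or 3 samples are too small for a check of single outlying samples.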

How the results depend on the processing

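Across 1233 alternative values for the 9 genes, 0 called values reversed, 1110 kept their side of the threshold, 54 calls were lost and 69 gained; 90 values changed sign where the value was not called. Leaving out 1 sample, the ratio difference of Acacb to Mlycd with SR-3420 ranged from 1.64 to 1.87 in TC and 0.93 to 1.20 in ETO, that of Cpt1b to Cpt1a from -0.50 to -0.11 in ETO and, for TC alone, from -0.13 to 0.19. Cpt2, Crat, Mlycd and Slc25a20 stayed lower with SR-3420 in TC in 15 of 15 alternatives, and Cpt2 and Mlycd in ETO in 15 of 15. Library totals, GC offsets and GC offsets with a replicate block were chosen after seeing the data. The cause of the changes below was not tested.

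With SR-3420 alone, members called higher went from 1 to 2 with GC offsets plus block and to 0 with only the groups compared, and members called lower from 0 to 1 with DESeq2, the block, library totals or GC offsets and to 2 with GC offsets plus block. With SR-3420 in TC, members called higher went from 0 to 1 with DESeq2 size factors, no filter, DESeq2, the block, library totals or only the groups compared, and to 2 with GC offsets, with or without block; members called lower went from 6 to 3 with a log2 change of at least 1, and the fall of Cpt1b was not called with GC offsets plus block (-0.44 against -0.67). With SR-3420 in ETO, members called higher went from 0 to 2 with the block, GC offsets or both. For TC alone they went from 0 to 2 with the block or GC offsets plus block, and members called lower from 0 to 1 with the block, GC offsets or both. For ETO alone, members called higher went from 0 to 1 with GC offsets plus block. Between TC+SR-3420 and SR-3420, members called lower went from 4 to 2 with only the groups compared and to 6 with the block, GC offsets or both. Between ETO+SR-3420 and SR-3420 they went from 0 to 1 with DESeq2, 6 with the block, 2 with GC offsets and 3 with both. For the difference in response with TC they went from 3 to 5 with DESeq2 or GC offsets and 6 with the block or both.

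Leaving out 1 sample at a time, members called higher ranged from 0 to 1 for SR-3420 alone, 0 to 1 in TC and 0 to 2 in ETO. Members called lower ranged from 1 to 3 between TC+SR-3420 and SR-3420 and from 0 to 1 for the difference in response with TC. Where this left vehicle or SR-3420 with 1 sample, that sample was assumed to vary like the other groups. The block treats replicate numbers as pairs, yet 8 of 35 pairs with the same number in different groups had a residual correlation at or under 0.1, so the numbers were not taken as pairs. In that check the mean correlation was 0.534 for the same number and -0.265 for different numbers, 13 of 16 samples were most like one of their own number, and all 8 exceptions involve TC replicate 1 or ETO+SR-3420 replicate 2. In the order SR-3420 alone, in TC, in ETO, TC, ETO, TC+SR-3420 and ETO+SR-3420 against SR-3420, and the differences in response with TC and ETO, all genes called were 964, 4722, 3234, 1497, 3, 585, 1, 321 and 0; with the block they were 2438, 7185, 5776, 3072, 6, 3008, 1838, 1669 and 3, with GC offsets 3035, 7085, 5978, 3291, 23, 2344, 129, 1499 and 1, and with both 4212, 8151, 7306, 4600, 96, 3952, 1760, 2686 and 11. DESeq2 called 1569, 4843, 3816, 1965, 17, 1204, 86, 809 and 9. Total counts limit Cpt1b most, with 25 to 83 reads in a sample.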
